A study of Mus musculus with 4 samples.

Results

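Kit, Sohlh1, Sohlh2, Sox3, Neurog3, Dmrt1, Dmrtb1 and Upp1 are 8 genes tied to the step at which mouse spermatogonia leave the stem cell state and begin to differentiate. They were chosen by name and are 8 of the 26041 gene symbols listed in the deposited count tables. Each was followed in every sequenced cell, by the genotype library the cell came from and by its Gfra1 status, Gfra1 being the GDNF receptor subunit that marks spermatogonial stem cells. All 8 were detected, and 1072 of 1249 cells held a UMI (a unique molecular identifier, which tags 1 captured transcript) of at least 1 of them.

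The cells were tdTOMATO+ germ cells sorted singly from testes of mice aged 4 weeks. All mice, controls included, carried an iCreERt2-tdTomato knock-in at Eomes (strain prefix B6N.Cg in the labels), so the reporter follows the Eomes locus. The groups were Plzf +/+ (897 cells in 3 libraries, from plates 1, 2 and 4) and Plzf lu/lu (352 cells in 2 libraries, from plates 3 and 4), where lu is luxoid, a mutation of Plzf (Zbtb16), a transcription factor needed to keep stem cells. Plate 3 gave 314 of the Plzf lu/lu cells and plate 4 only 38, and the labels name no animals, so the spread between libraries may be technical.

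In the seminiferous epithelium, stem cells that carry GFRA1 give rise to chains of progenitors that switch on NEUROG3, SOX3 and UPP1. Retinoic acid then turns progenitors into differentiating spermatogonia, which depend on the receptor tyrosine kinase KIT and on the paired bHLH factors SOHLH1 and SOHLH2. DMRT1 holds spermatogonia in the mitotic program, and DMRTB1 (also called DMRT6) acts as they pass from mitosis to meiosis.

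On GRCm38.p6, the RefSeq annotation places Kit at chr5:75574987-75656722, Sohlh1 at chr2:25842995-25847248, Sohlh2 at chr3:55182044-55209957 and Neurog3 at chr10:62133090-62134763. Dmrt1 is at chr19:25505618-25604328, Dmrtb1 at chr4:107676288-107704011, Upp1 at chr11:9118008-9136170 and Sox3 at chrX:60891366-60893430. All are protein-coding. SOHLH1, SOHLH2 and NEUROG3 are bHLH proteins, a class that binds the E-box CANNTG, so the 250 bases before the RefSeq start of 4 members are printed 5′ to 3′ on the coding strand with every E-box in capitals. They are Sohlh1 (chr2:25847249-25847498, minus strand), Neurog3 (chr10:62132840-62133089, plus strand), Upp1 (chr11:9117758-9118007, plus strand) and Kit (chr5:75574737-75574986, plus strand). The first 3 are the members whose levels split most clearly by Gfra1 status below, and Kit is the one without the motif.

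Sohlh1: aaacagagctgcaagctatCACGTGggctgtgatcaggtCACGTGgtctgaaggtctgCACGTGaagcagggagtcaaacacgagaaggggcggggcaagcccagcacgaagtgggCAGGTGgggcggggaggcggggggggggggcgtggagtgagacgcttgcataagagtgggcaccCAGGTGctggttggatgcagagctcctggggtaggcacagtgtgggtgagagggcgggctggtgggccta

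Neurog3: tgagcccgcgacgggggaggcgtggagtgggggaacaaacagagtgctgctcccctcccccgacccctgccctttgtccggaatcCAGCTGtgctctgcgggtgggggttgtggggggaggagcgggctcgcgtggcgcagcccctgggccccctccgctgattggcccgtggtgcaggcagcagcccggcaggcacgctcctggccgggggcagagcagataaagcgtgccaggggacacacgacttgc

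Upp1: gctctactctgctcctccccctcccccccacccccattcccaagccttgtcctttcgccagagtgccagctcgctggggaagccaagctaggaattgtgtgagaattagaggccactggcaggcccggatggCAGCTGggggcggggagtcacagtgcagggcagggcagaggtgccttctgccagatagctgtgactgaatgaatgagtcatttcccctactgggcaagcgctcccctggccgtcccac

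Kit: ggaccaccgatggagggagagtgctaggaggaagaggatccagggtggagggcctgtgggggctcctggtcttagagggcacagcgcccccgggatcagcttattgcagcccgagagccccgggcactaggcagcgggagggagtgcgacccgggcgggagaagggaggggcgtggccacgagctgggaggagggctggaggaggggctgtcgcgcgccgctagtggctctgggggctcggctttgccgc

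The Sohlh1 window held 5 E-boxes, 3 of them CACGTG and 2 CAGGTG, and the Neurog3 and Upp1 windows held 1 each, CAGCTG in both. A second Upp1 window, at chr11:9117853-9118102, overlapped the first and held the same CAGCTG site. A further one, at chr11:9118257-9118506, held 2, CATCTG and CAGCTG. The Kit window held 0. CANNTG reads as an E-box on both strands, and 66.2% of the 32851 promoter windows of the same length hold at least 1, but only 1.15% hold 5 or more. A match is a description of letters and not evidence of binding, and no match says only that these letters are absent from this window. Windows of Sohlh2 (1 E-box) and Dmrtb1 (3 in the first of its windows) are not printed.

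Depth and identity of the cells set what can be seen. Libraries held 254514 to 2608702 UMIs, and cells a median of 5908 (Plzf +/+) and 6272 (Plzf lu/lu) UMIs. Zbtb16, the mutated gene, went with the labels: it was at 51.8 to 76.7 CPM (counts per 1000000 UMIs) across Plzf +/+ and at 12.1 and 18.3 for Plzf lu/lu (log2 fold change −1.97 ± 0.30 SE, edgeR adjusted p = 0.0319). The 4 germ cell markers were detected in every library (1818 to 2279 CPM in all), which describes the sums and not each cell. Some cells also carried transcripts of other cells: 59 of 1249 had over 1% of their UMIs in marker lists of spermatids and of somatic, immune, vascular and red blood cells. Plates reuse the same set of well barcodes, so 358 barcodes occur in more than 1 library, but the Plzf +/+ and Plzf lu/lu cells of plate 4 share 0. On plate 4, 5 Plzf +/+ cells lie in wells that the labels give to Plzf lu/lu.

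A set of cells that should lack the members came from 23 cells with 10 or more UMIs of Sertoli or T and NK cell markers and no UMI of the germ cell genes Dazl and Ddx4 (median 2216 UMIs, against 5942 over all cells). Kit, Sohlh1, Sohlh2, Sox3, Neurog3 and Upp1 were each found in 0 of these 23, so that shares up to 13.0% (3 counts of 23) remain possible. The 23 cells were chosen to lack 2 germ cell transcripts, which can lower the shares of others. Among all 50 cells with 10 or more such marker UMIs (median 4157.5 UMIs), Sohlh1 was in 10.0%, Sohlh2 and Sox3 in 12.0% each, Dmrt1 in 42.0%, Kit in 4.0%, Upp1 in 2.0% and Neurog3 in 0. Dmrt1, which Sertoli cells also express, was in 3 of 23 (13.0%). Dmrtb1 was in 4 of 23 (17.4%, exact Clopper-Pearson 95% interval 4.95% to 38.8%), a share that bears on its values below. Intervals and such limits cover counting error only.

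How often each gene was seen differed widely. Dmrt1 was the most often detected member, with a UMI in 893 of 1249 cells (71.5%). Sohlh1 followed in 564 cells (45.2%) and its partner Sohlh2 in 281 (22.5%). Dmrtb1 (183 cells, 14.7%), Upp1 (171, 13.7%), Sox3 (131, 10.5%) and Kit (115, 9.21%) were seen in a minority. Neurog3 was the rarest, with 39 UMIs in 33 cells (2.64%). These shares follow depth: cells with a Kit UMI had a median of 8524 UMIs and cells without one 5724. When each cell was thinned to 2000 UMIs, which leaves out 82 shallower cells, the shares became 42.9% for Dmrt1, 21.9% for Sohlh1, 8.57% for Sohlh2, 4.20% for Sox3, 2.66% for Kit and 1.29% for Neurog3. Counts come from the 3′ end of each transcript and were not scaled by length, so levels are compared below between groups and not between genes.

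Sox3 was the one member called between the genotypes, and it was higher in Plzf lu/lu. SOX3 is an X-linked transcription factor of committed progenitors that is needed for spermatogonial differentiation. Its level was 12.6, 11.5 and 10.3 CPM on Plzf +/+ plates 1, 2 and 4 and 35.9 and 36.2 CPM on Plzf lu/lu plates 3 and 4. Every Plzf lu/lu library was thus above every Plzf +/+ library, and the 2 Plzf lu/lu libraries lay close together although one held 90 Sox3 UMIs and the other 9. The means were 11.5 ± 1.19 (SD, n = 3) and 36.0 ± 0.238 (SD, n = 2), a log2 fold change of 1.64 ± 0.28 (SE, edgeR quasi-likelihood test, Benjamini-Hochberg adjusted p = 0.0478). Across all genes tested, 112 of 13728 (0.816%) were called, 80 higher and 32 lower in Plzf lu/lu, so 1 of 8 members stands against that background.

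The Sox3 call lay close to its threshold. It was kept without the low-count filter, with thinned cells, without the 59 cells rich in other markers (log2 fold change 1.58, edgeR adjusted p = 0.0294), without cells over 30000 UMIs and without Plzf +/+ plate 1. The call was lost with DESeq2 (1.62, adjusted p = 0.0723). It was also lost without any 1 of the other 4 libraries, with log2 fold changes from 1.51 to 1.64 (edgeR adjusted p from 0.141 to 0.381). On plate 4 alone, which held both genotypes, the log2 ratio was 1.83 with no test. The ratios there, from 38 Plzf lu/lu cells, were 0.26 for Kit, 0.40 for Sohlh1 and 0.12 for Dmrt1. They were −1.31 for Sohlh2 (4 UMIs in Plzf lu/lu), −1.86 for Dmrtb1 (12 UMIs) and −1.93 for Upp1 (2 UMIs), of which Sohlh2 had the opposite sign to its fit over all libraries.

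The share of cells with a Sox3 UMI moved in the same direction as its level. It was 6.31%, 7.26% and 6.50% for Plzf +/+ and 20.4% and 18.4% for Plzf lu/lu. At 2000 UMIs a cell it was 2.52% (21 of 834, exact 95% interval 1.57% to 3.82%) in Plzf +/+ and 8.41% (28 of 333, 5.66% to 11.9%) in Plzf lu/lu. Most cells that held Sox3 held 1 UMI, since 24 of 131 had 2 or more. In summed counts, more cells with the transcript and more transcript per cell cannot be told apart. Markers of Sertoli cells also differed between the genotypes: the 8 listed genes summed to 71.7 to 72.3 CPM in Plzf +/+ and 303 and 459 CPM in Plzf lu/lu, with 7 or 8 of 8 detected and Fshr at 0 in 4 of the 5 libraries. Sox3 was in 6 of the 50 somatic-marker cells (12.0%), beside 10.6% of the 1121 cells with neither somatic nor spermatid markers at those levels, and in 0 of the 23 without Dazl and Ddx4. The part of the somatic-marker cells in the Sox3 difference was not tested. The fit without marker-rich cells given above used another rule, over 1% of a cell's UMIs, and did not leave out this set as such.

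**Figure D1:**
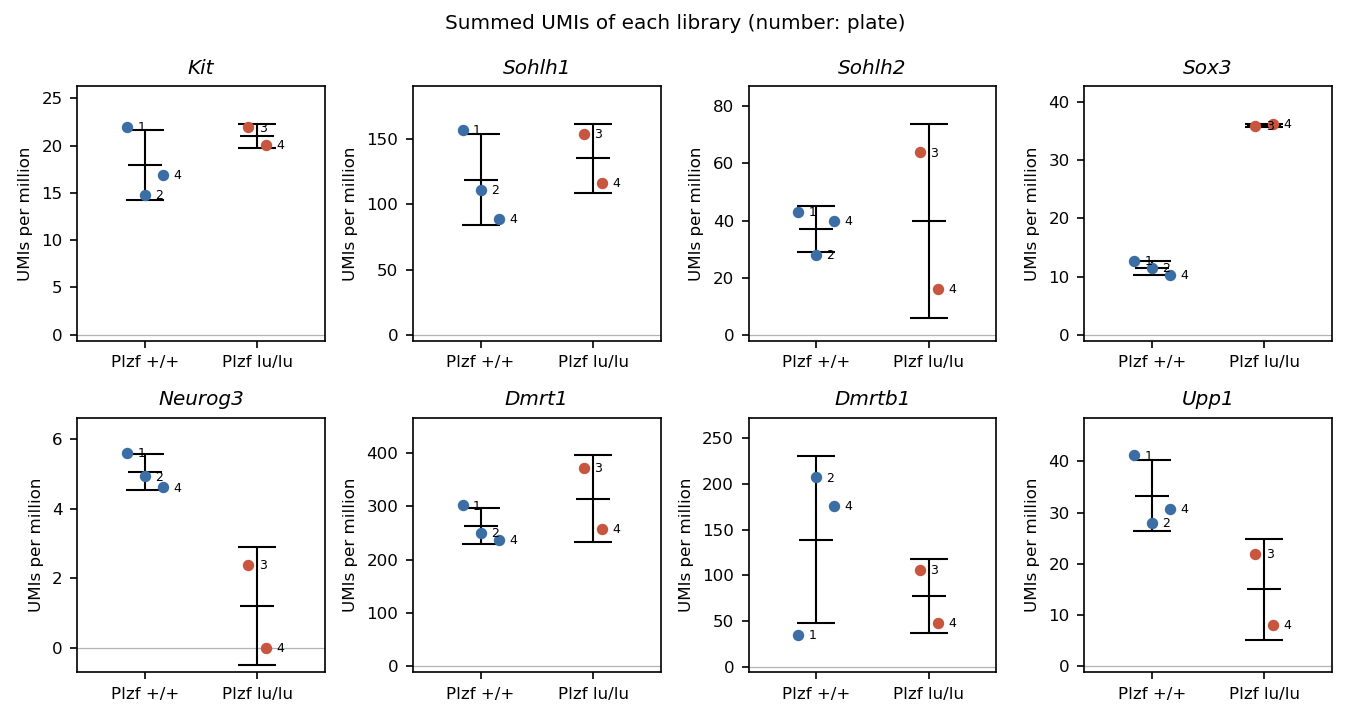
Level of each of the 8 genes (y axis, CPM after TMM scaling) in the summed cells of each library, by genotype (x axis). Points are libraries with their plate number, bars are mean ± SD (n = 3 and n = 2); for Sox3 both Plzf lu/lu points lie near 36 and the Plzf +/+ points near 11, while for Sohlh2 and Dmrtb1 the libraries of 1 genotype spread widely.

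Upp1 and Neurog3 were at lower levels in Plzf lu/lu, but neither passed the test. Upp1, the pyrimidine salvage enzyme uridine phosphorylase 1, was at 41.2, 27.9 and 30.8 CPM for Plzf +/+ and at 21.9 and 8.04 for Plzf lu/lu (log2 fold change −0.83 ± 0.36, edgeR adjusted p = 0.35). Leaving out 1 library gave log2 fold changes from −2.05 (without Plzf lu/lu plate 3) to −0.55 (without Plzf +/+ plate 1). Neurog3, the bHLH factor of early progenitors, was at 5.61, 4.93 and 4.61 CPM against 2.39 and 0. The values behind it are small: 12, 12 and 9 UMIs in Plzf +/+ and 6 and 0 in Plzf lu/lu, and the 0 came from a library of 38 cells (log2 fold change −1.26 ± 0.71, edgeR adjusted p = 0.497). Sox3, Upp1 and Neurog3 were the 3 of 8 members whose libraries did not overlap between the genotypes, beside 34.4% of the 13728 genes tested.

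The bHLH pair and Kit did not separate by genotype. Sohlh1 was at 157, 111 and 88.7 CPM in Plzf +/+ and at 154 and 117 in Plzf lu/lu (0.23 ± 0.26, edgeR adjusted p = 0.802). Sohlh2 was at 43.0, 27.9 and 40.0 CPM in Plzf +/+, within the range of its 2 Plzf lu/lu libraries, which stood at 63.8 and 16.1 (0.39 ± 0.43, edgeR adjusted p = 0.799). Kit was at 22.0, 14.8 and 16.9 CPM against 21.9 and 20.1 (0.26 ± 0.32, edgeR adjusted p = 0.823). All 3 genes had overlapping libraries, and the low UMI counts of the small Plzf lu/lu library (29, 4 and 5 UMIs) bound what could be seen. Kit also gives a truncated transcript in spermatids that shares the 3′ end, so counts from that end cannot separate it from the receptor transcript.

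The DMRT genes overlapped too. Dmrt1 was at 302, 251 and 238 CPM in Plzf +/+ and at 372 and 257 in Plzf lu/lu (0.29 ± 0.19, edgeR adjusted p = 0.576). Dmrtb1 was at 34.6, 207 and 176 CPM in Plzf +/+ and at 106 and 48.3 in Plzf lu/lu (−0.69 ± 0.84, edgeR adjusted p = 0.831). The Plzf +/+ library of plate 1 stood apart for Dmrtb1 and for the 6 spermatid markers, which summed to 1082 CPM there and to 5353 and 4760 CPM on plates 2 and 4, while the Plzf lu/lu sums were 1795 CPM on plate 3 and 4892 CPM on plate 4, all 6 being detected in each library. Among the alternatives Dmrtb1 was called only without the Plzf +/+ library of plate 1, lower in Plzf lu/lu (−1.05, edgeR adjusted p = 0.00624). Its log2 fold change was −0.11 with thinned cells (edgeR adjusted p = 0.945) and −0.30 without Plzf +/+ plate 2. It was −1.54 without Plzf lu/lu plate 3 and −0.40 without the Plzf lu/lu cells of plate 4. The 7 spermatocyte markers summed to 933, 2565 and 2423 CPM on Plzf +/+ plates 1, 2 and 4 and to 1718 and 1713 CPM in Plzf lu/lu. The part of spermatocyte and spermatid transcripts in this call was not tested.

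By Gfra1 status all 8 estimates pointed to lower levels in Gfra1-positive cells, none passed the test, and single libraries went both ways for Kit, Sox3, Sohlh2, Dmrt1, Dmrtb1 and Upp1. Cells with at least 1 Gfra1 UMI (566 of 897 Plzf +/+ and 134 of 352 Plzf lu/lu cells) were summed apart from cells with 0 in each library, and the sums were compared within libraries. The median log2 fold change of the 8 members, Gfra1-positive over Gfra1-negative, was −0.78, beside 0.02 for all 12264 genes tested. None passed the adjusted threshold in the edgeR test, where 26 genes (0.212%) were called, while 5 of 8 members and 1083 of the 12264 genes had an unadjusted p under 0.05. With DESeq2 1 of 8, Upp1, was called, beside 62 of 12264 genes. Markers of other cells moved with status. In Plzf +/+ the 5 T and NK cell markers summed to 35.8, 185 and 45.1 CPM in Gfra1-negative and to 4.03, 8.05 and 5.31 CPM in Gfra1-positive cells of plates 1, 2 and 4, and the Sertoli markers to 134, 157 and 77.2 against 45.7, 48.3 and 69.0 CPM. In Plzf lu/lu the Sertoli sums were 810 against 96.7 CPM on plate 3 and 470 against 128 CPM on plate 4, while the T and NK sums were 18.1 against 34.3 and 54.0 against 0 CPM. The spermatid sums were lower in Gfra1-positive cells of all 5 libraries, least so on plate 3 (1702 against 1885 CPM) and most so in the Plzf lu/lu cells of plate 4 (208 against 9402 CPM). The 7 spermatocyte markers went both ways: they summed to 791, 2896 and 2359 CPM in Gfra1-positive and 1261, 1353 and 2545 CPM in Gfra1-negative Plzf +/+ cells, and to 1371 and 945 against 2054 and 2453 CPM in Plzf lu/lu. The part of the other markers in the values below was not tested beyond the fits without marker-rich cells. Those fits did not select on the spermatocyte markers, whose part was not tested. Gfra1-positive cells were the deeper ones, with a median of 6991 against 4558 UMIs, and a cell with 0 Gfra1 UMIs may still contain the transcript.

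Upp1 showed the split most clearly among Plzf +/+ libraries. In Gfra1-negative cells it was at 87.4, 77.9 and 62.7 CPM on plates 1, 2 and 4, and in Gfra1-positive cells of the same plates at 22.9, 15.8 and 15.7. The means were 76.0 ± 12.4 and 18.1 ± 4.15 (SD, n = 3). In Plzf lu/lu the same comparison gave 27.0 against 15.5 on plate 3, and 0 against 15.6 on plate 4, where the latter is 2 UMIs in 1 cell. Over all libraries the log2 fold change was −1.69 ± 0.33 (edgeR adjusted p = 0.0913). Upp1 was called with DESeq2 (adjusted p = 0.0473), without the low-count filter, without cells over 30000 UMIs (−1.73, edgeR adjusted p = 0.0011), with Gfra1-positive cells defined by 2 or more UMIs (−2.12, edgeR adjusted p = 0.00675), and without the Plzf +/+ library of plate 2 (edgeR adjusted p = 0.0185) or the Plzf lu/lu library of plate 4 (0.012). It was not called without marker-rich cells (−1.75, edgeR adjusted p = 0.0593), nor without Plzf +/+ plate 1 (0.532), Plzf +/+ plate 4 (0.467) or Plzf lu/lu plate 3 (0.103).

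The shares of cells tell the same at equal depth. Of Plzf +/+ cells thinned to 2000 UMIs, Upp1 was in 2.33% of Gfra1-positive (13 of 557, exact 95% interval 1.25% to 3.96%) and 11.6% of Gfra1-negative cells (32 of 277, 8.04% to 15.9%). In thinned Plzf lu/lu cells the shares were 3.10% (4 of 129) and 3.92% (8 of 204), with intervals that overlap. Put by level of Gfra1 in Plzf +/+ cells, the Upp1 share at 2000 UMIs was 11.6% with 0 Gfra1 UMIs, 1.61% with 1, 4.09% with 2 to 3 and 0.662% with 4 or more.

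Neurog3 was found mostly in Gfra1-negative cells. Of the 33 cells with a Neurog3 UMI, 25 had no Gfra1 UMI, although 56.0% of all cells had one. In Plzf +/+ libraries the Gfra1-negative cells held 8, 11 and 7 Neurog3 UMIs and the larger Gfra1-positive sums 4, 1 and 2. As levels these are 12.9, 21.4 and 11.0 CPM against 2.70, 0.563 and 1.57 CPM. In Plzf lu/lu there were 5 UMIs in Gfra1-negative and 1 in Gfra1-positive cells, all on plate 3. The log2 fold change was −3.01 ± 0.70 (edgeR adjusted p = 0.136), and Neurog3 was called with Gfra1-positive cells defined by 2 or more UMIs (edgeR adjusted p = 0.0264), without the low-count filter (0.0036) and without cells over 30000 UMIs (0.0241). It was not called with DESeq2 (−2.91, adjusted p = 0.0821) or without marker-rich cells (−3.19, edgeR adjusted p = 0.143). Nor was it called without any 1 library, with log2 fold changes from −3.49 to −2.35 (edgeR adjusted p from 0.0903 to 0.522). None of the 151 Plzf +/+ cells with 4 or more Gfra1 UMIs held Neurog3.

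**Figure D2:**
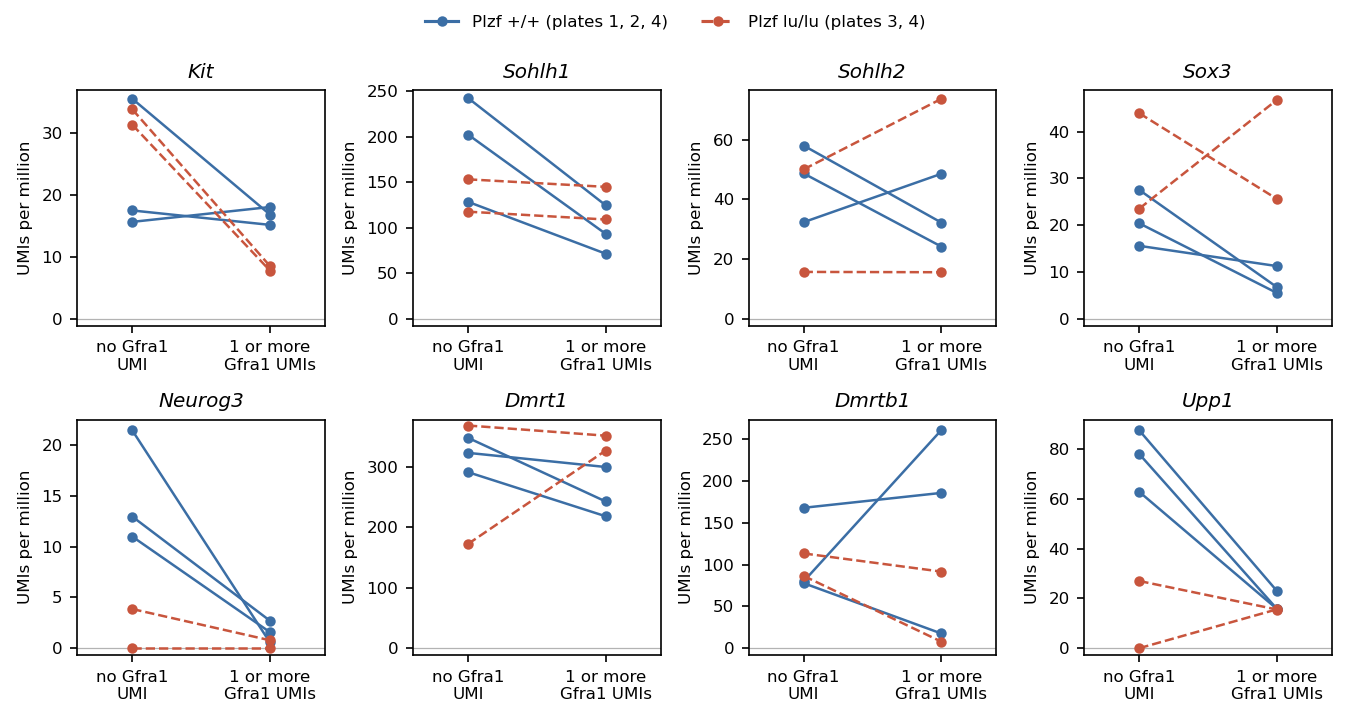
Level of each gene (y axis, CPM after TMM scaling) in cells with no Gfra1 UMI and in cells with 1 or more, with a line joining the 2 sums of each library (blue solid, Plzf +/+; red dashed, Plzf lu/lu). For Upp1, Neurog3 and Sohlh1 every blue line falls from left to right, and the red Sohlh1 lines are nearly flat.

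Sohlh1, Sox3 and Dmrt1 were also lower in the Gfra1-positive sums of all 3 Plzf +/+ libraries. With Upp1 and Neurog3 this makes 5 of 8 members, beside 13.7% of the 12264 genes. Sohlh1 was at 243, 203 and 129 CPM in Gfra1-negative and at 125, 93.4 and 71.6 CPM in Gfra1-positive Plzf +/+ cells. The means were 191 ± 57.9 and 96.6 ± 26.8 (SD, n = 3). In Plzf lu/lu it was at 153 and 118 CPM against 145 and 109, so the 2 sums of each library were close. Over all libraries the log2 fold change was −0.69 ± 0.17 (edgeR adjusted p = 0.158), and Sohlh1 was called under 3 alternatives, the same ones as Neurog3, but not with DESeq2, with thinned cells, without marker-rich cells (edgeR adjusted p = 0.084) or without any 1 library (0.0932 to 0.73).

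Sox3 was at 27.5, 15.6 and 20.4 CPM in Gfra1-negative and at 6.75, 11.3 and 5.50 CPM in Gfra1-positive Plzf +/+ cells. The 2 Plzf lu/lu libraries went opposite ways, 43.9 against 25.6 CPM on plate 3 and 23.5 against 46.8 CPM on plate 4, where the sums were 3 and 6 UMIs. Over all libraries the log2 fold change was −0.98 ± 0.36 (edgeR adjusted p = 0.42). With thinned cells, where status was taken from the thinned counts, it was −0.31 (edgeR adjusted p = 0.875). Dmrt1 differed least of these 5 members, at 324, 349 and 292 CPM against 300.2, 243 and 219 CPM in Plzf +/+ (−0.14 ± 0.16, edgeR adjusted p = 0.905).

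Kit, Sohlh2 and Dmrtb1 showed no common direction among Plzf +/+ libraries. Kit was at 35.6, 17.5 and 15.7 CPM in Gfra1-negative and at 16.9, 15.2 and 18.1 CPM in Gfra1-positive Plzf +/+ cells. In both Plzf lu/lu libraries it was lower in Gfra1-positive cells, 8.53 against 33.9 CPM and 7.80 against 31.4 CPM, the second pair being 1 and 4 UMIs (−0.88 ± 0.35 over all libraries, edgeR adjusted p = 0.479). Of the 82 Plzf +/+ cells with a Kit UMI 53 were Gfra1-positive (64.6%), close to the 63.1% of all Plzf +/+ cells; of the 33 such Plzf lu/lu cells 9 were (27.3%, exact 95% interval 13.3% to 45.5%, beside 38.1% of all). Sohlh2 was higher in Gfra1-positive cells on plates 1 and 3 and lower on plate 2 and in the Plzf +/+ cells of plate 4 (−0.12 ± 0.29, edgeR adjusted p = 0.973). Dmrtb1 was at 17.5, 261 and 186 CPM in Gfra1-positive and at 77.7, 79.8 and 168 CPM in Gfra1-negative Plzf +/+ cells (−0.13 ± 0.63, edgeR adjusted p = 1). It was called lower only with thinned cells (−1.53), where status was taken from the thinned counts. The groups of that fit thus differ from those of the main fit, as does depth. With the status of the unthinned cell, Dmrtb1 was in 7.29% of Gfra1-positive and 9.77% of Gfra1-negative thinned cells of both genotypes. The exact 95% intervals of these shares overlap (5.46% to 9.50% and 7.27% to 12.8%).

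**Figure D3:**
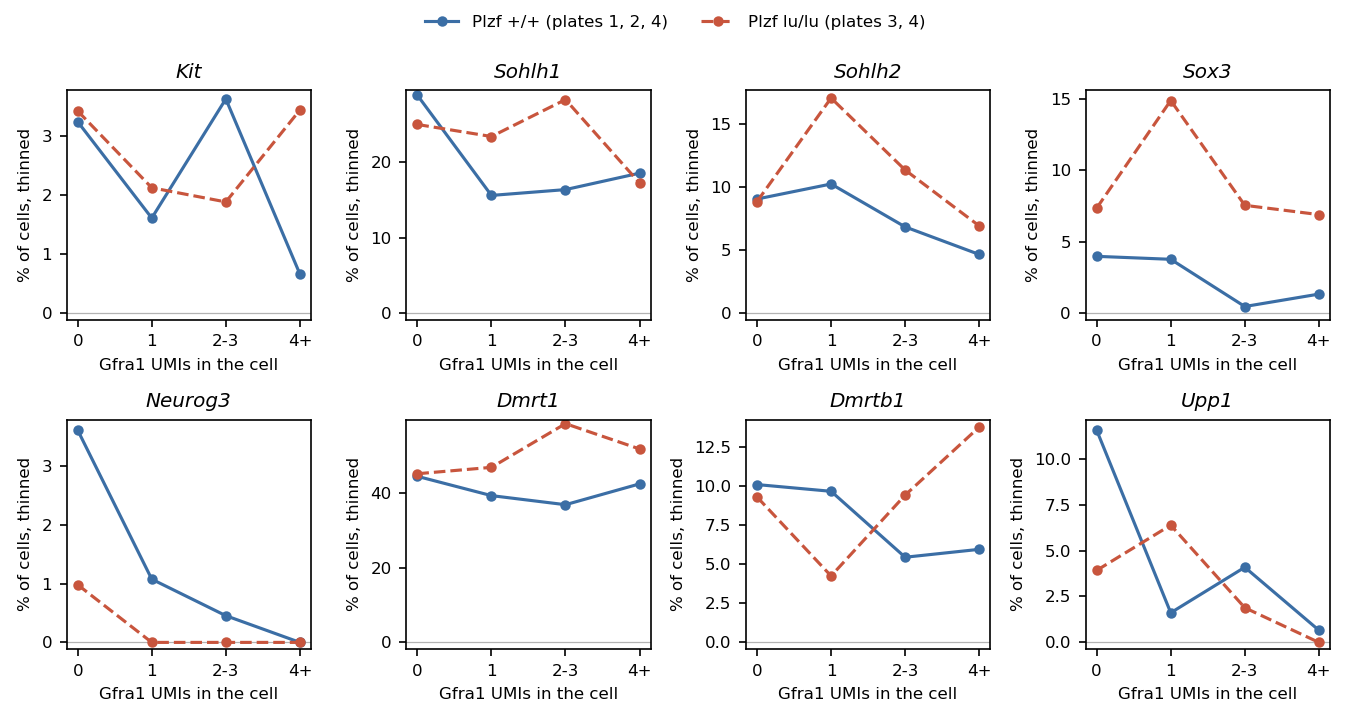
Share of cells with a UMI of each gene after thinning to 2000 UMIs (y axis, percent) against the number of Gfra1 UMIs in the unthinned cell (x axis), for Plzf +/+ (blue solid) and Plzf lu/lu (red dashed). Neurog3 ends at 0 and Upp1 near 0 in the cells with 4 or more Gfra1 UMIs, a bin of 151 Plzf +/+ and 29 Plzf lu/lu cells.

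Within Gfra1-positive cells the genotypes were compared again, and no member was called, where 11 of 12430 genes (0.0885%) were. Neurog3 was too low to be tested. Sox3 had the largest difference (log2 fold change 1.97 ± 0.51, edgeR adjusted p = 0.194). Gfra1-positive cells held 10, 20 and 7 Sox3 UMIs for Plzf +/+ and 33 and 6 for Plzf lu/lu, with levels as given above. Kit had a log2 fold change of −0.98 ± 0.47 (edgeR adjusted p = 0.415), with 1 UMI in the Plzf lu/lu cells of plate 4. For Dmrt1 it was 0.43 ± 0.19 (edgeR adjusted p = 0.379). Sox3 was called higher without the low-count filter (1.94, edgeR adjusted p = 0.0248). Leaving out 1 library moved the calls further: without the Plzf +/+ library of plate 1, Sohlh1 (0.84), Sohlh2 (1.30), Sox3 (1.83) and Dmrt1 (0.68) were called higher and Dmrtb1 (−1.42) lower in Plzf lu/lu, with 1965 genes called in all. In that library Sohlh1, Sohlh2 and Dmrt1 stood at 125, 48.6 and 300.2 CPM in Gfra1-positive cells, above the other 2 Plzf +/+ libraries.

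Within Gfra1-negative cells no member was called either, where 48 of 9827 genes (0.488%) were. Upp1 had the largest difference, from 62.7 to 87.4 CPM in Plzf +/+ to 27.0 and 0 CPM in Plzf lu/lu (−1.74 ± 0.46, edgeR adjusted p = 0.158). It was called lower without the low-count filter (edgeR adjusted p = 0.00269) and without marker-rich cells (−1.69, 0.001). It was not called with DESeq2 (adjusted p = 0.404) or without any 1 Plzf +/+ library (edgeR adjusted p from 0.117 to 0.55). With thinned cells, where status was taken from the thinned counts, the log2 fold change was −0.92 (edgeR adjusted p = 0.507). Without Plzf lu/lu plate 3 the log2 fold change was −8.17, and without the Plzf lu/lu cells of plate 4 it was −1.44. Sox3 had a log2 fold change of 0.90 ± 0.41 (edgeR adjusted p = 0.476), which became 0.20 when Plzf lu/lu plate 3 was left out and 0.29 on plate 4 alone. The remaining 5 members tested lay between −0.38 and 0.56. Sertoli markers were highest in these sums, at 470 and 810 CPM in Plzf lu/lu and 77.2 to 157 CPM in Plzf +/+; Upp1 was in 1 of the 50 somatic-marker cells.

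Whether the Gfra1 split itself differed between genotypes was tested as an interaction. No member was called, and of all 12264 genes 1 (0.00815%) was, with 906 at an unadjusted p under 0.05; DESeq2 called 0 genes, with 430 at an unadjusted p under 0.05. Sohlh1 had the smallest p of the members (log2 difference of the split, Plzf lu/lu minus Plzf +/+, 0.89 ± 0.27, edgeR adjusted p = 0.321), and Upp1 (1.53 ± 0.63), Kit (−1.55 ± 0.68) and Dmrt1 (0.60 ± 0.26) also had unadjusted p under 0.05. The different look of the split in the 2 genotypes is therefore not shown to be a difference.

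**Figure D4:**
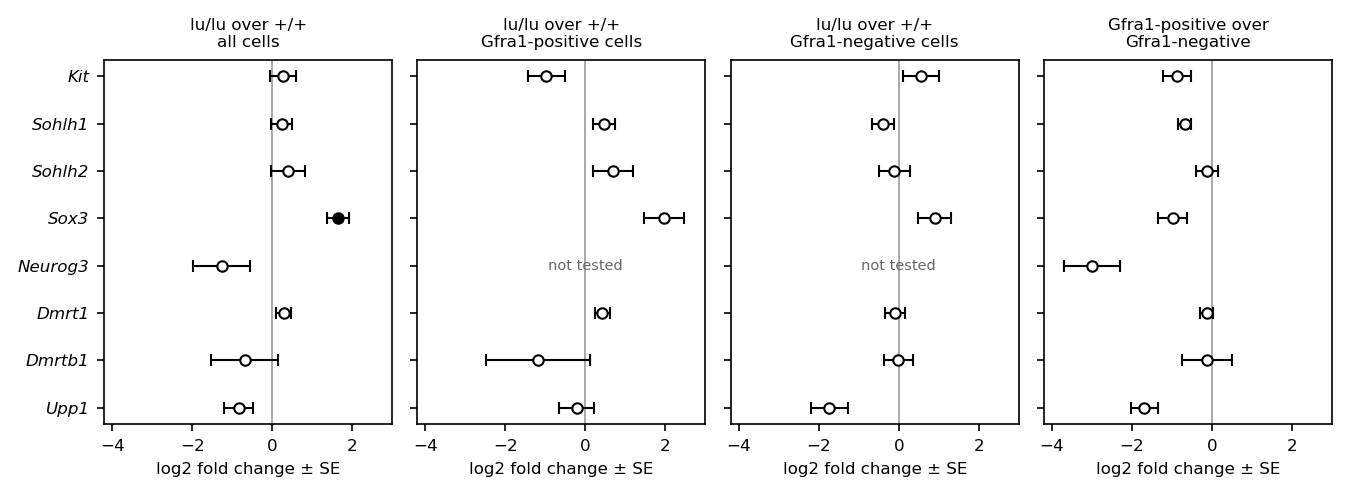
Log2 fold changes (x axis) with SE of the 8 genes in the 3 genotype comparisons and by Gfra1 status. The filled point, Sox3 in all cells, is the one with an edgeR adjusted p under 0.05; Neurog3 was too low to be tested in the panels for Gfra1-positive and Gfra1-negative cells.

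Dmrtb1 was set apart from the other 7 by where its UMIs lay. Its 1198 UMIs were spread over 183 cells, but 14 cells with 20 or more held 607 of them (50.7%), and the highest held 120. These 14 cells were very deep, with a median of 41755 UMIs, and all carried Ldhc, the lactate dehydrogenase of meiotic and later germ cells, at 150 to 666 UMIs; 11 carried the spermatid gene Prm1, 10 carried Gfra1 and 1 carried Kit. They came from every library but the small one, with 5 and 6 from the Plzf +/+ cells of plates 2 and 4. The 18 cells over 30000 UMIs held 9.06% of all UMIs but 49.5% of Dmrtb1 UMIs, against 0% to 5.22% for the other 7 members.

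Dmrtb1 was seen more often in cells with more Ldhc. It was in 29 of 770 cells with no Ldhc UMI (3.77%), in 52 of 364 with 1 to 9 (14.3%) and in 102 of 115 with 10 or more (88.7%), at median depths of 5454, 6096 and 13176 UMIs. Ldhc itself was in 15 of the 23 somatic cells without Dazl and Ddx4 (65.2%) and in 32.6% of the 1121 cells without somatic or spermatid markers, so 1 to 9 Ldhc UMIs were not read as expression of Ldhc. Summed levels were 8.45, 28.3 and 542 CPM, here without TMM scaling. The other 7 members were all lower in the cells with 10 or more than in those with 0, with Sohlh1 at 155, 131 and 56.4 and Dmrt1 at 336, 324 and 136 CPM. Of 91 cells with 20 or more spermatid-marker UMIs, 66 held Dmrtb1. In the 1121 cells with neither spermatid nor somatic markers at those levels the share was 9.46%, within the interval of the 4 in 23 somatic cells, and no expression was read from that share alone.

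**Figure D5:**
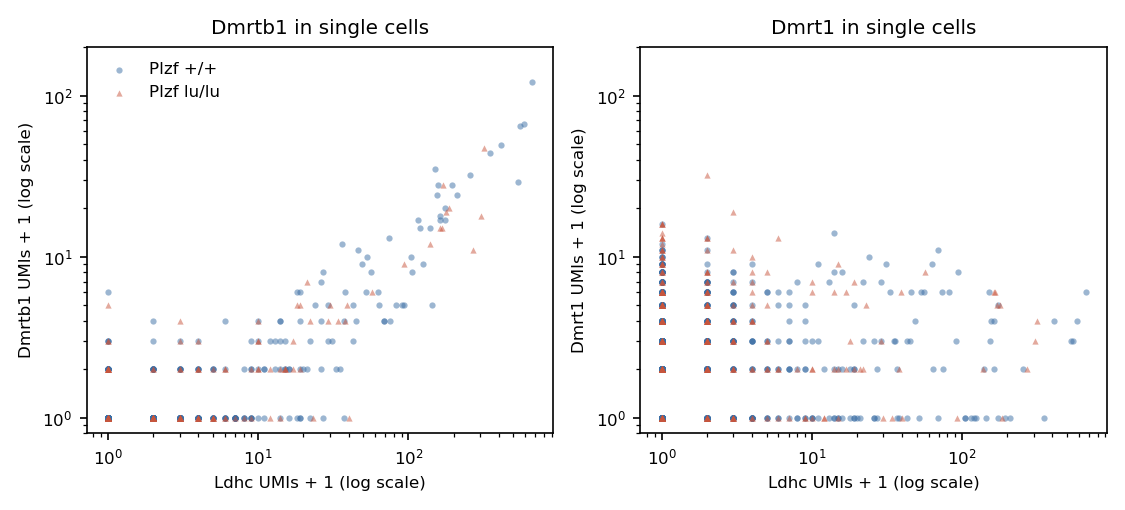
UMIs of Dmrtb1 (left) and Dmrt1 (right) against UMIs of Ldhc in each of the 1249 cells, both with 1 added and on log axes (blue circles, Plzf +/+; red triangles, Plzf lu/lu). Dmrtb1 climbs with Ldhc to its highest value of 120 UMIs, whereas Dmrt1 reaches 31 UMIs and is seen across the range of Ldhc.

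Co-detection was described over all 1249 cells, where deeper cells hold more of every gene. Of the 281 cells with Sohlh2, 176 (62.6%) also held Sohlh1, beside 40.1% of cells without Sohlh2. Of the 171 cells with Upp1, 122 (71.3%) held Sohlh1, beside 41.0% of the rest. Progenitor genes overlapped as well: 14 of 33 Neurog3 cells held Upp1 (42.4%, beside 12.9% of the rest) and 9 of 33 held Sox3 (27.3%, beside 10.0%). Of the 115 Kit cells, 72 held Sohlh1 (62.6%) and 99 Dmrt1 (86.1%); 3 held Neurog3. No cell held all 8, and 1 Plzf lu/lu cell of 23861 UMIs held 7.

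At 2000 UMIs, Plzf +/+ cells without Gfra1 held a mean of 1.15 members and those with Gfra1 0.770. In Plzf lu/lu the means were 1.04 and 1.13, a reversed order that was not tested.

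The genes most like each member were found by Pearson correlation of ln(1 + UMIs per 10000) over the 1249 cells, among 12140 genes with a UMI in 50 or more cells, as a description. Kit was most like Stra8 (r = 0.30), the retinoic acid-induced gatekeeper of meiosis, with 61 of the 115 Kit cells also holding Stra8, then Lmo1 (0.21). Sohlh1 was most like Uchl1 (0.29), Stra8 (0.26) and Park7 (0.25), and Sohlh2 like Atp5f1 (0.20), Nme1 (0.17) and Rpl22 (0.17). Sox3 was closest to Cthrc1 (0.24), Nrk (0.20) and Uchl1 (0.19). Upp1 was closest to Oasl2 (0.28), Nanos3 (0.23) and Igfbp6 (0.23), and Dmrt1 to Uchl1 (0.31), Rps2 (0.31) and Dazl (0.31). Dmrtb1 alone had strong neighbours, Cetn1 (0.75), Pabpc2 (0.73) and Ppp3r2 (0.73). In such sparse counts the weak values are no findings; Neurog3 was in too few cells.

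Of 18 other genes of spermatogonial differentiation, 17 were tested by Gfra1 status and 1 was called: Stra8, lower in Gfra1-positive cells (−1.56 ± 0.13, edgeR adjusted p = 1.82e-04). The largest others were Ddit4 (−1.63), Ccnd2 (0.95), Dnmt3b (−0.79) and Nanos3 (−0.69), none of which passed. The list's median was 0.07, beside 0.02 for all genes tested. Of 15 stem cell genes 4 were called, all higher in Gfra1-positive cells: Lhx1 (1.93), Bcl6b (1.39), Etv5 (1.30) and the GDNF receptor kinase Ret (1.09), with a list median of 1.00. The 8 members thus had a median on the other side of 0 from the stem cell list.

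Between the genotypes in all cells, 17 of the 18 differentiation genes were tested, and Utf1 (2.69) was called higher and Ccnd1 (−1.29) lower in Plzf lu/lu. Rarg (1.52), Stra8 (0.81), Crabp1 (0.80) and Sall4 (−0.55) did not pass; the list median was 0.19 and that of all genes 0.00. Of the 15 stem cell genes, Egr4 (1.78) was called higher and Lhx1 (−2.30) and T lower, with a list median of −0.41. Within Gfra1-positive cells 0 of 17 differentiation genes and 1 of 15 stem cell genes, Egr4 (2.33), were called, and within Gfra1-negative cells 0 of 16 and 0 of 10.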

How the data were processed

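Sorted single cells were sequenced from the 3′ end. The authors deposited raw UMI counts per gene symbol and cell, 1 table per genotype; the submitters' processing notes name bcl2fastq 2.18.0.12, Picard 2.9.3, STAR 2.5.4a and GRCm38. All columns were mapped to libraries through their name suffixes and the labels. The genes and lists were chosen with earlier results of these data known.

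UMIs were summed per library, and per library and Gfra1 status, and tested with edgeR 4.0.16 in R 4.3.3 (filterByExpr, TMM, robust quasi-likelihood; library as block for status), with Benjamini-Hochberg adjustment over all genes and a threshold of 0.05. Values called CPM are TMM-scaled, except summed marker lists and the levels by Ldhc. The SE is the log2 fold change over the root of F. Cells of 1 plate are not replicates. In simulated data for the genotype comparison in all cells (13280 genes), 76.9% of genes changed by 2 on the log2 scale and 27.3% of those changed by 1 were recovered.

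All 8 members were named, with list genes that were called and up to 4 of the largest others, and the 3 genes most like each member, of which 1 is not reported here. Alternatives were DESeq2 1.42.0, no filter, cells thinned to 2000 UMIs (seed 1), other cell subsets and Gfra1 status from 2 UMIs. Plate 4 alone and leaving out each library were further ones. In fits by Gfra1 status or within 1 status, thinned cells took their status from the thinned counts. There 384 of 1167 cells had a Gfra1 UMI, so both depth and groups differ from the main fits. Shares of thinned cells by status kept the status of the unthinned cell. Doublets were not called. Promoter windows rest on RefSeq (GRCm38.p6) and were available for 6 of 8 members. No window was available for Sox3 and Dmrt1.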

Additional observations from a re-analysis of the deposited data

How the results depend on the processing

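Of 429 log2 fold changes of the 8 genes that had an adjusted p under an alternative (plate 4 alone, which had no test, is not among them), 380 kept their direction and their side of the threshold, 22 came to pass it, 5 no longer passed it and 22 changed sign, 16 of these when 1 library was left out. Numbers of genes called moved far more, and the cause was not tested. Between genotypes in all cells 112 genes were called, 583 without the low-count filter, 373 with thinned cells, 245 without marker-rich cells, 502 without cells over 30000 UMIs (an alternative chosen after seeing the data, here and below), and 1 to 1387 when 1 library was left out, the highest without the Plzf +/+ library of plate 1. In Gfra1-positive cells 11 were called, 74 with DESeq2, 551 without the filter, 61 with thinned cells, 53 without marker-rich cells, 350 without cells over 30000 UMIs, 52 with status from 2 UMIs, and 1 to 1965 without 1 library. In Gfra1-negative cells 48 were called, 17 with DESeq2, 223 without the filter, 114 with thinned cells, 700 without marker-rich cells, and 1 to 91 without 1 library. By Gfra1 status 26 were called, 62 with DESeq2, 267 without the filter, 319 with thinned cells, 334 without cells over 30000 UMIs, 159 with status from 2 UMIs, and 4 to 169 without 1 library. For the interaction 1 was called, 0 with DESeq2, 194 without the filter, 3 with thinned cells, 39 without marker-rich cells, 9 without cells over 30000 UMIs, 11 with status from 2 UMIs, and 0 to 22 without 1 library.

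Signs changed as follows, in log2 units. Between genotypes in all cells, leaving out 1 library gave −0.044 to 0.52 for Sohlh1, −1.21 to 0.78 for Sohlh2 and −0.051 to 0.49 for Dmrt1, and in Gfra1-positive cells −1.16 to 1.30 for Sohlh2 and −0.29 to 0.10 for Upp1. In Gfra1-negative cells it gave −1.48 to 0.16 for Sohlh2, −0.83 to 0.25 for Dmrt1 and −0.27 to 0.46 for Dmrtb1; thinning gave 0.38 for Sohlh2 and 0.19 for Dmrt1, leaving out cells over 30000 UMIs 0.011 for Dmrt1, and leaving out marker-rich cells 0.33 for Dmrtb1. By Gfra1 status it gave −0.41 to 0.14 for Sohlh2 and −0.57 to 0.23 for Dmrtb1. In the interaction Dmrtb1 ran from −3.56 to 0.095 without 1 library and was 0.97 with thinned cells, and Neurog3 was −0.11 with status from 2 UMIs. On plate 4 alone, with no test, Sohlh2 was −1.31 in all cells and −0.96 in Gfra1-positive cells, and Upp1 was 0.078 in Gfra1-positive cells, each opposite in sign to the fit over all libraries.

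No paired analysis was possible because only plate 4 held both genotypes. Leaving out a Plzf lu/lu library leaves 1, which is then assumed to vary like the Plzf +/+ libraries. The small Plzf lu/lu library (254514 UMIs) limits what can be seen of Neurog3, Kit and Upp1.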
